A study of Mus musculus with 9 samples.

Results

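*Hic1* and *Lancl3* are 2 genes of the 57010 in the count table, matched by symbol to ENSMUSG00000043099.6 and ENSMUSG00000047344.10. They were selected on their log2 fold changes in the 2 comparisons of mutants with controls, as genes with a large fall in both. The comparisons of the mutants with controls therefore chose them, and these are given as a description without a test. *Hic1* had 11 reads and *Lancl3* 12 in their lowest embryo, so both only just entered the test, which took the 13680 genes whose count was above 10 in all 9 embryos.

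RNA was sequenced from the cerebral cortex of single mouse embryos at E12.5 (the embryonic day), with 3 embryos for each genotype. Control (Ctrl) embryos are labelled WT, with no further allele or transgene named. *Cnot3* cKO embryos lost floxed *Cnot3*, which encodes a subunit of the CCR4-NOT deadenylase, and *Cnot3*;*Trp53* dcKO embryos lost floxed *Cnot3* together with floxed *Trp53*, which encodes p53. Both deletions were made by *Emx1*-Cre, which acts in radial glial cells (RGCs) of the dorsal telencephalon and in the cells they give rise to, so cells of other origin in the dissected cortex kept the floxed genes.

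HIC1 (hypermethylated in cancer 1) is a zinc finger protein that represses transcription, with a BTB domain through which its molecules associate and a central region that recruits the corepressor CtBP and the NuRD complex. Its gene is a known target of p53 and of E2F1, and HIC1 in turn is known to repress *Sirt1*, which encodes a deacetylase that acts on p53. LANCL3 belongs to the LanC-like proteins, the mammalian relatives of the bacterial enzymes that form lanthionine rings; its relative LANCL1 binds glutathione, and the family is known to add glutathione to damaged, dehydrated amino acids in proteins.

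The files used the mouse build mm39, and the positions here are those of GENCODE M21 on GRCm38. *Hic1* lies on the minus strand at chr11:75164565-75169519 with 2 exons in its coding isoform, and *Lancl3* on the plus strand at chrX:9199902-9268085 with 5 exons. The DNA before the transcription starts that RefSeq gives for both genes (GRCm38.p6) is printed because both genes were low in the same 6 embryos, with capitals marking the GC box GGGCGG, the CCAAT box and the TATA motif TATAA on either strand. *Hic1* has starts at 2 places. Window 1 is chr11:75170256-75170505 on the minus strand, 736 bases upstream of the GENCODE gene. Window 2 is chr11:75168153-75168402 on the minus strand, within the intron of the coding isoform. The *Lancl3* window is chrX:9199723-9199901 on the plus strand and stops where GENCODE places the first exon.
Hic1 window 1: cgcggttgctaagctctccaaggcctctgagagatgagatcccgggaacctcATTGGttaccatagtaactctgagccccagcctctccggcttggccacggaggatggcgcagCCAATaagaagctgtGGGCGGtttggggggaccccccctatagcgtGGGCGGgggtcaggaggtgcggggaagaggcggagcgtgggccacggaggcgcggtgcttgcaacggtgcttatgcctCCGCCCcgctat
Hic1 window 2: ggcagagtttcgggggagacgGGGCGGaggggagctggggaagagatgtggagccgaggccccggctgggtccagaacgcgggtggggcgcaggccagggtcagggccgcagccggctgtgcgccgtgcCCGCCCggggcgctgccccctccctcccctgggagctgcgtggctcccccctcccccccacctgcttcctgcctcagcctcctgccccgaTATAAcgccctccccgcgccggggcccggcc
Lancl3 window 1: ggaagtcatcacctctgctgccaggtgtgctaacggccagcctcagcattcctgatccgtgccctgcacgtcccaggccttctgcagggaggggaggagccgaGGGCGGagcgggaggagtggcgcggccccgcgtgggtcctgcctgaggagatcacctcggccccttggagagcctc

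All 3 windows were rich in GC and in CpG dinucleotides. Over 250 bases before each start, GC content was 64.4% in *Hic1* window 1, 77.2% in *Hic1* window 2 and 69.2% at *Lancl3*, with 18, 22 and 18 CpG. The median over all 32841 windows of this length was 6 CpG. GC boxes, to which Sp1 binds, numbered 3, 2 and 2, with 1 of the *Lancl3* pair in the 71 exonic bases not printed, where 32.7% of all windows held at least 1. The CCAAT box occurred only in *Hic1* window 1, with 2 copies, against 33.9% of all windows. TATAA occurred only in *Hic1* window 2, with 1 copy, against 22.8% of all windows. The letters GGGCA, the core of the site that HIC1 itself binds, were found on either strand 0, 3 and 1 times, and in 47.8% of all windows. In *Hic1* window 2, 1 of the 3 shared letters with a GC box. The sequence TTTCCCGC with its E2F variant TTTGGCGC (1.3% of all windows) and the p53 half-site (7.13%) had no match in the 3 windows, which says only that these letters are not there.

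Before the members, the libraries were compared. Between 21193798 and 28869816 reads were counted in Ctrl, 24835674 and 25946075 in cKO, and 23275370 and 45073349 in dcKO. *Cnot3* stood at 107.5 ± 9.54 CPM (SD, n = 3; the read count scaled to the library size with TMM factors) in Ctrl and at 14.6 to 17.3 CPM in cKO. In dcKO it was 7.33, 48.2 and 19.0 CPM in embryos 1, 2 and 3, and *Trp53* was 15.1, 110 and 20.6 CPM against 215 to 254 CPM in Ctrl. Thus dcKO embryo 2 kept more of both targeted transcripts than the other two, had the deepest library, and reached a summed level of 8.43 CPM over 8 subpallial genes, where Ctrl embryos had 0.216 to 0.489 CPM. It also had 11590 *Xist* reads, while dcKO embryos 1 and 3 had 0.

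*Hic1* was expressed at a low level in control cortex. Per kilobase of exon it stood at 0.971 ± 0.444 CPM (SD, n = 3) in Ctrl, the 12.7th percentile of the 13562 tested genes with a known length. *Lancl3* was much like it at 1.11 ± 0.547 CPM per kilobase (SD, n = 3), the 14.6th percentile. The intervals given for single embryos are 95% Poisson intervals that cover counting error only, and for *Hic1* those of Ctrl embryos 1 and 3, 4.54 to 6.43 and 1.62 to 2.74 CPM, did not overlap.

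*Hic1* had 133, 68 and 59 reads in Ctrl embryos 1, 2 and 3, which is 5.42, 3.37 and 2.13 CPM. In cKO it had 24, 12 and 11 reads, or 0.876, 0.446 and 0.415 CPM. In dcKO it had 22, 15 and 43 reads, or 0.611, 0.383 and 1.78 CPM. All 6 mutant embryos were below the lowest Ctrl embryo, and dcKO embryo 3 stood apart from the other 5. Its interval of 1.29 to 2.40 CPM overlapped that of Ctrl embryo 3, 1.62 to 2.74 CPM. Relative to the mean of Ctrl, cKO embryos kept 11.4% to 24.1% and dcKO embryos 10.5%, 16.8% and 48.9%.

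*Lancl3* had 169, 55 and 102 reads in Ctrl, which is 6.89, 2.73 and 3.68 CPM. In cKO it had 20, 52 and 16 reads, or 0.730, 1.93 and 0.603 CPM. In dcKO it had 12, 32 and 21 reads, or 0.333, 0.817 and 0.869 CPM. Here too no mutant embryo reached the lowest Ctrl embryo. The mutant embryo nearest to Ctrl was another one than for *Hic1*: cKO embryo 2, with an interval of 1.44 to 2.54 CPM against 2.05 to 3.55 CPM in Ctrl embryo 2. Of the mean of Ctrl, cKO embryos kept 13.6% to 43.6% and dcKO embryos 7.52% to 19.6%.

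**Figure D1:**
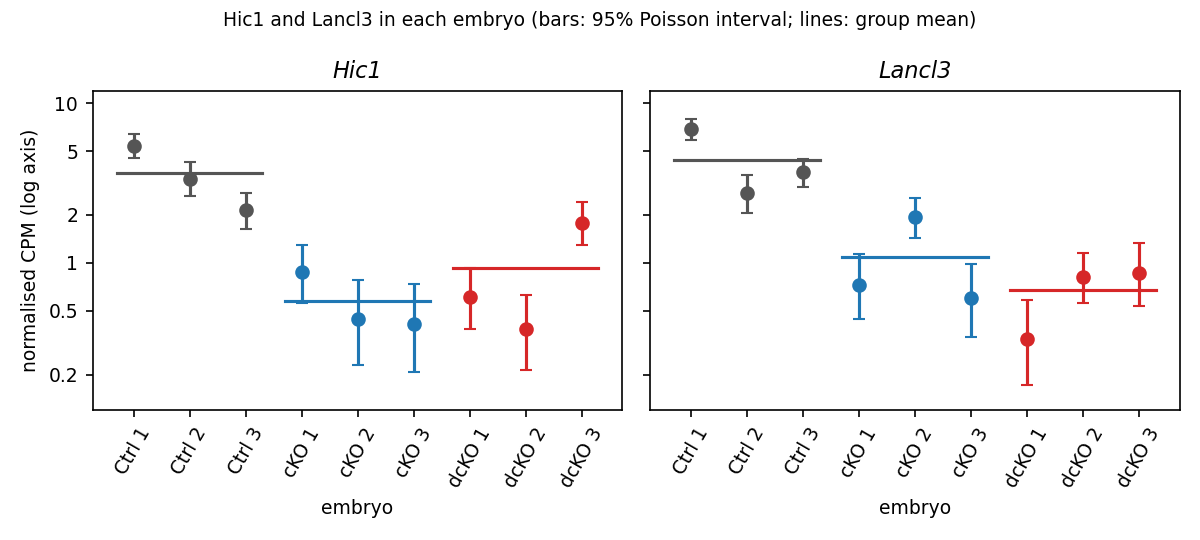
Normalised CPM of *Hic1* and *Lancl3* in each embryo on a log axis; points are embryos, bars are 95% Poisson intervals of the count and lines are the mean of each genotype. All mutant embryos lie below the lowest Ctrl embryo, with dcKO 3 the nearest for *Hic1* at 1.78 CPM and cKO 2 the nearest for *Lancl3* at 1.93 CPM.

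On the log2 scale, *Hic1* differed from Ctrl by -2.64 ± 0.64 (SE) in cKO and by -2.0 ± 0.61 in dcKO. *Lancl3* differed by -2.02 ± 0.58 in cKO and by -2.72 ± 0.60 in dcKO. *Hic1* had the 6th lowest log2 fold change of all tested genes in cKO and the 15th in dcKO, *Lancl3* the 50th in cKO and the lowest in dcKO. The median over all tested genes was 0.01 in cKO and 0.11 in dcKO. By the mean of both comparisons *Lancl3* ranked 2nd and *Hic1* 4th. Log2 fold changes below -1 in both mutants were found for 493 genes, and for 260 of these every mutant embryo was also below every Ctrl embryo, as for these 2. Every embryo was below Ctrl for 28% of all tested genes in cKO and for 11.2% in dcKO, and since these values chose the genes, nothing is read from their place there. The share with every embryo above Ctrl is not given. For genes named below, nothing is read from all embryos lying above Ctrl.

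edgeR's quasi-likelihood test with Benjamini-Hochberg adjustment over all tested genes called 0 genes lower in cKO (0% of 13680) and 0 in dcKO (0%) at an adjusted p under 0.05 and a fold above 2. At an unadjusted p under 0.05, 27% of genes differed in either direction in cKO and 29.2% in dcKO. DESeq2 called 530 genes lower in cKO (3.87%) and 519 in dcKO (3.79%). Log2 fold changes and their SE are those of edgeR throughout, also where the call or the adjusted p of DESeq2 is given. Both mutants were compared with the same 3 Ctrl embryos, so the 2 comparisons are not independent.

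The comparison of dcKO with cKO asks whether loss of *Trp53* changed the level of either gene when *Cnot3* was lost too. It is the difference of the 2 comparisons that chose the genes, so it is given without a test too. The *Hic1* value in dcKO minus that in cKO was 0.64 ± 0.63 (SE) on the log2 scale, and for *Lancl3* it was -0.70 ± 0.59. Neither value is read as an effect of *Trp53* loss or as its absence. The embryos of the 2 genotypes overlapped for both genes. The *Hic1* value was 3.06 ± 0.91 in a fit with a number in the embryo names as a block, described with the pairs of embryos that share it. Among all tested genes, the calls between the mutants were 0.0146% lower in dcKO and 0% higher with edgeR and 0.351% and 0.0292% with DESeq2, while 4.42% had an unadjusted edgeR p under 0.05. Without dcKO embryo 3 the *Hic1* difference was -0.22, and without cKO embryo 2 the *Lancl3* difference was 0.00.

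The GC content of the transcripts set the 2 genes apart. *Hic1* exons were 64.7% GC, more than 99.7% of the tested genes, while *Lancl3* exons were 47.5% GC, close to the median of 50.1%. At the 3rd codon position they were alike, at 73.9% and 72.4% GC. Both were high there, above 91% and 87.8% of the tested genes, with a median of 60.4% over 12111 genes. Log2 fold changes of all genes went down with GC content: over 50 bins of equal size, the median went from 0.16 in the lowest bin to -0.96 in the highest in cKO, and from 0.67 to -0.90 in dcKO. The 109 tested genes within 2 percentage points of *Hic1*'s GC content had a median log2 fold change of -1.07 in cKO and -0.93 in dcKO, with 1 and 3 of them lower than *Hic1*. The 2956 genes within 2 points of *Lancl3* had medians of 0.15 and 0.26, with 2 and 0 of them lower than *Lancl3*.

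**Figure D2:**
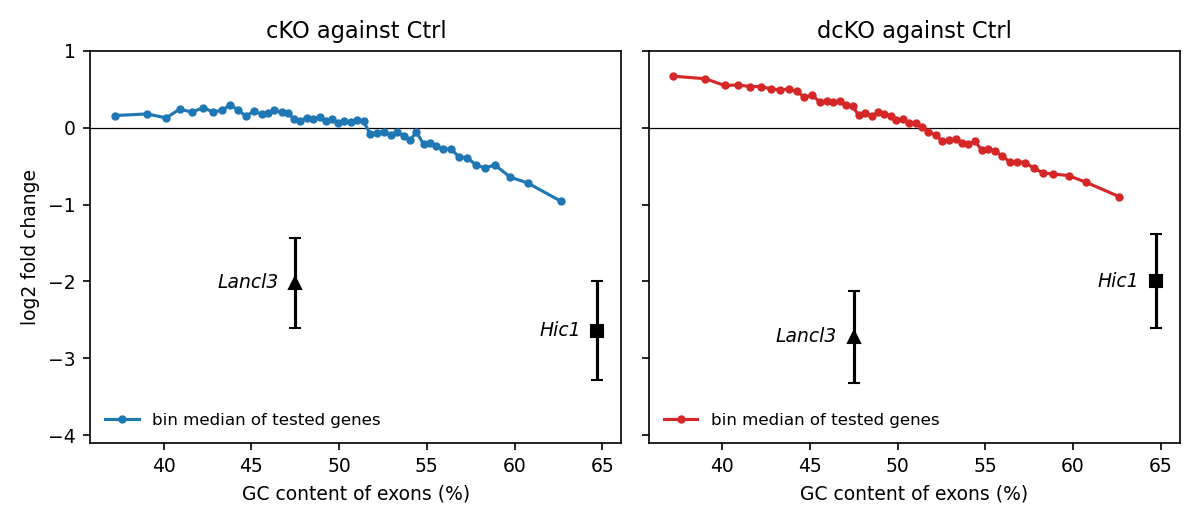
Median log2 fold change of tested genes in 50 bins of exon GC content (percent), for cKO and dcKO against Ctrl, with *Hic1* and *Lancl3* as points with their SE. *Hic1* at 64.7% GC sits where the bin medians are lowest, and *Lancl3* at 47.5% GC sits where they are above 0.

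The genes of like GC content also differed between embryos of one genotype. Relative to the mean log2 level of Ctrl, their median was 0.37, 0.09 and -0.49 in Ctrl embryos 1 to 3, where *Hic1* was at 0.68, -0.01 and -0.67. It was -1.14, -0.86 and -1.16 in cKO, where *Hic1* was at -1.93, -2.88 and -2.98. It was -1.93, -1.66 and 0.06 in dcKO, where *Hic1* was at -2.44, -3.09 and -0.92. The order of embryos was that of *Hic1* in Ctrl but not in cKO, nor between dcKO embryos 1 and 2. The dcKO embryo with the most *Hic1*, embryo 3, was the only mutant embryo in which GC-rich genes were at the level of Ctrl. For *Lancl3* the median of its like genes stayed between -0.03 and 0.38 in all 9 embryos, while *Lancl3* ranged from -3.55 to 0.74.

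With a correction of each library for GC content, *Hic1* differed from Ctrl by -1.54 ± 0.42 in cKO and by -0.91 ± 0.41 in dcKO on the log2 scale, and all 6 mutant embryos stayed below every Ctrl embryo. Its corrected levels were 2.37, 1.87 and 1.83 CPM in Ctrl, 1.11, 0.443 and 0.546 CPM in cKO and 1.48, 0.851 and 0.954 CPM in dcKO. The Ctrl embryos came closer together, and dcKO embryo 1 became the highest of its genotype. *Lancl3* differed by -2.23 ± 0.59 and -2.96 ± 0.61 with the same correction. So the *Hic1* difference was smaller with the correction and the *Lancl3* difference was not. Whether the course with GC content arose in the libraries or in the cells was not tested.

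**Figure D3:**
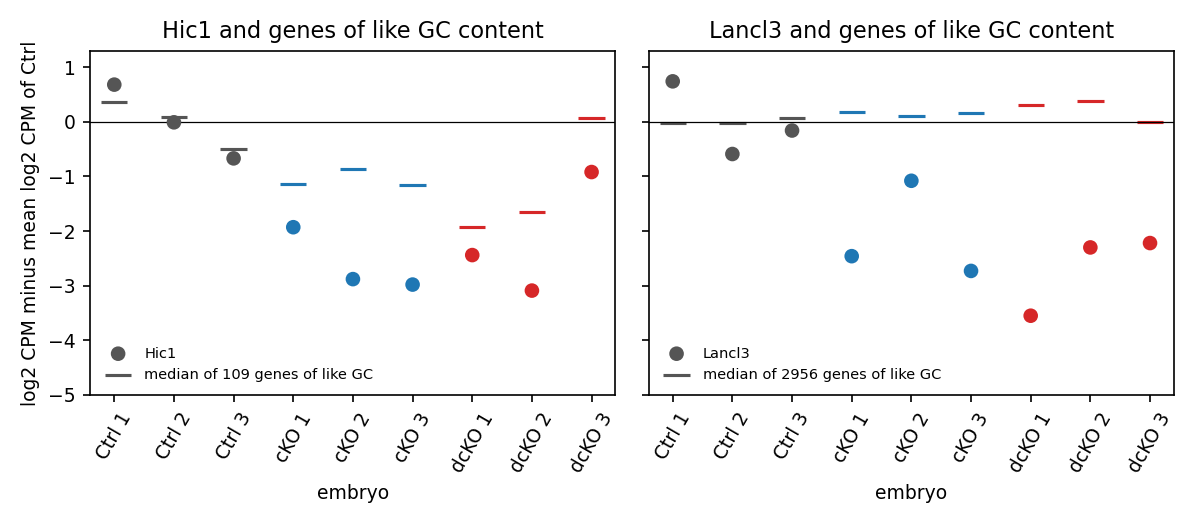
Log2 CPM of each embryo minus the mean log2 CPM of Ctrl for *Hic1* and *Lancl3* (points) and the median of tested genes within 2 percentage points of their exon GC content (dashes). For *Hic1* the dashes are between -1.93 and -0.86 in all mutant embryos but dcKO 3, at 0.06, and for *Lancl3* they stay near 0.

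The name of each embryo in the labels holds a number, called the collection number here although the labels do not say what it stands for, and 3 of these numbers are shared by a Ctrl and a mutant embryo. *Hic1* was at 8.23% of Ctrl in cKO embryo 2 against Ctrl embryo 1, at 12.3% in cKO embryo 3 against Ctrl embryo 2, and at 83.7% in dcKO embryo 3 against Ctrl embryo 3. *Lancl3* was at 28.1%, 22.1% and 23.6% in the same pairs. *Lancl3* was thus below 30% of Ctrl in all 3 pairs, and *Hic1* in the 2 cKO pairs. Deviations of the paired embryos from their genotype means had correlations of 0.191, -0.0134 and -0.537 in the same order. That a shared number makes a true pair is therefore not shown. With the collection number as a block, *Hic1* differed from Ctrl by -0.26 in dcKO and *Lancl3* by -2.08. Both values rest on the single pair of dcKO embryo 3 with Ctrl embryo 3.

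*Lancl3* is on the X chromosome, and *Xist*, the RNA of the inactive X, was read in 2 Ctrl, 1 cKO and 1 dcKO embryos. Ctrl embryo 1 had no *Xist* read and the highest *Lancl3* level. Among the 5 embryos without *Xist*, it had 6.89 CPM and the 4 mutants 0.333 to 1.93 CPM. Among the 4 with *Xist*, the Ctrl embryos had 2.73 and 3.68 CPM and the mutants 0.730 and 0.817 CPM. The first set holds a single Ctrl embryo. With the presence of *Xist* as a block *Lancl3* differed by -2.16 ± 0.59 in cKO and -2.77 ± 0.59 in dcKO.

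The relatives of the members did not follow them in one way. *Hic2*, which encodes the closest relative of HIC1, had 18.0 to 19.7 CPM in Ctrl, 4.63 to 8.70 CPM in cKO and 4.97, 16.6 and 7.49 CPM in dcKO. It was below Ctrl in all 6 mutant embryos, by -1.39 ± 0.43 (edgeR adjusted p = 0.0827, DESeq2 adjusted p = 0.0164) in cKO and, for dcKO, -0.96 ± 0.43 (0.17 and 0.101) on the log2 scale. *Lancl1* had 43.1 to 44.8 CPM in Ctrl, 62.2 to 64.0 CPM in cKO and 44.3 to 75.5 CPM in dcKO. It was above Ctrl in all cKO embryos and overlapped with Ctrl in dcKO, and it passed the test in neither (0.52 ± 0.20 with edgeR adjusted p = 0.132, and 0.46 ± 0.20 with 0.158). *Lancl2*, whose protein is a membrane-bound member of the family, had 66.7 to 73.9 CPM in Ctrl, 113 to 124 CPM in cKO and 114 to 156 CPM in dcKO. It was above Ctrl in all 6 mutant embryos, by 0.72 ± 0.16 (edgeR adjusted p = 0.0509, DESeq2 0.00309) in cKO and 0.89 ± 0.16 (0.0502 and 2.7e-04) in dcKO, under the 2-fold threshold. Per kilobase, *Lancl2* at 23.6 CPM and *Lancl1* at 6.39 CPM were both far above *Lancl3* at 1.11 CPM in Ctrl.

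*Hic2* and 9 genes of partners of HIC1 were listed beside *Hic1*, and all 10 were tested. Without *Hic1*, their median log2 fold change was -0.62 in cKO and -0.62 in dcKO, beside 0.01 and 0.11 over all genes. edgeR called 0 of them in either mutant. DESeq2 called 2 lower in cKO (*Hic2* and *Ctbp1*), where it called 3.87% of all genes lower, and 1 in dcKO (*Ctbp1*), where it called 3.79%. The corepressor gene *Ctbp1* had 260 to 451 CPM in Ctrl, 129 to 142 CPM in cKO and 95.3, 169 and 264 CPM in dcKO. As with *Hic1*, its dcKO embryo 3 was the nearest to Ctrl, and it overlapped the lowest Ctrl embryo. *Mta1* and *Chd4* encode subunits of NuRD: *Mta1* differed by -0.79 ± 0.30 and -0.89 ± 0.30, and *Chd4* by -0.14 ± 0.15 and -0.23 ± 0.15, none called. DESeq2 adjusted p was 0.0334 for *Mta1* in dcKO and 0.00891 and 0.0114 for *Arid1a* in cKO and dcKO. In cKO it was 0.0342 for *Hdac4* and 0.0461 for *Ctbp2*. All of these were under the 2-fold threshold. *Hdac4*, *Arid1a*, *Ctbp2* and *Tcf7l2* had log2 fold changes between -0.89 and -0.47 in both mutants, and *Phf19*, of a Polycomb complex, had 0.43 and -0.08. With the GC correction the median of these 10 was -0.42 in cKO and -0.22 in dcKO, and *Ctbp1* differed by -1.06 and -0.46.

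The regulators of *Hic1* were taken next. *Trp53* had 164 to 167 CPM in cKO and 215 to 254 CPM in Ctrl. All its cKO embryos were below Ctrl, as for 28% of all tested genes. The difference was -0.50 ± 0.59 (edgeR adjusted p = 0.616). *E2f1*, a cell cycle transcription factor, had 46.2 to 57.7 CPM in Ctrl, 18.6 to 23.9 CPM in cKO and 12.8 to 24.3 CPM in dcKO, with no overlap. It was lower by -1.34 ± 0.27 (edgeR adjusted p = 0.0509, DESeq2 2.08e-04) in cKO and, for dcKO, -1.37 ± 0.27 (0.0502 and 1.27e-04). The GC correction left -0.93 and -0.62. The p53 target *Cdkn1a*, which encodes the cell cycle inhibitor p21, had 16.6 to 17.3 CPM in Ctrl, 68.1 to 124 CPM in cKO and 27.9, 8.99 and 21.5 CPM in dcKO. It rose in cKO by DESeq2 (2.46 ± 0.38; adjusted p = 2.49e-07; edgeR adjusted p = 0.0509), and in dcKO it stood at 0.21 ± 0.37. *Mdm2*, another p53 target, differed by -0.39 ± 0.26 and -0.05 ± 0.26.

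Genes that HIC1 is known to repress lay on both sides of 0. Of 11 listed, 7 were tested, with a median of 0.20 in cKO and -0.13 in dcKO. DESeq2 called 1 of the 7 lower in cKO, *Ccnd1*, and 0 in dcKO, beside 3.87% and 3.79% of all genes, and edgeR called 0 in both. *Sirt1*, also counted among the partners, had 27.6 to 34.0 CPM in Ctrl, 39.0 to 49.8 CPM in cKO and 63.1, 69.4 and 33.9 CPM in dcKO. It was above Ctrl in all cKO embryos and overlapped in dcKO, with 0.52 ± 0.26 and 0.82 ± 0.26 (edgeR adjusted p = 0.231 and 0.0829; DESeq2 0.24 and 0.0439, under the 2-fold threshold), and 0.25 and 0.35 with the GC correction. *Ccnd1*, which encodes cyclin D1, had 210 to 245 CPM in Ctrl, 89.3 to 110 CPM in cKO and 69.6, 236 and 97.4 CPM in dcKO. It fell in cKO by DESeq2 (-1.19 ± 0.37; adjusted p = 0.0216; edgeR adjusted p = 0.0827). *Ackr3*, *Cdkn1c*, *Efna1*, *Epha2* and *Sox9* lay between -0.65 and 0.46 in cKO, and in dcKO between -0.77 and 0.18. *Atoh1* and *Fgfbp1* were too low to test, and *Lcn2* had no read.

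**Figure D4:**
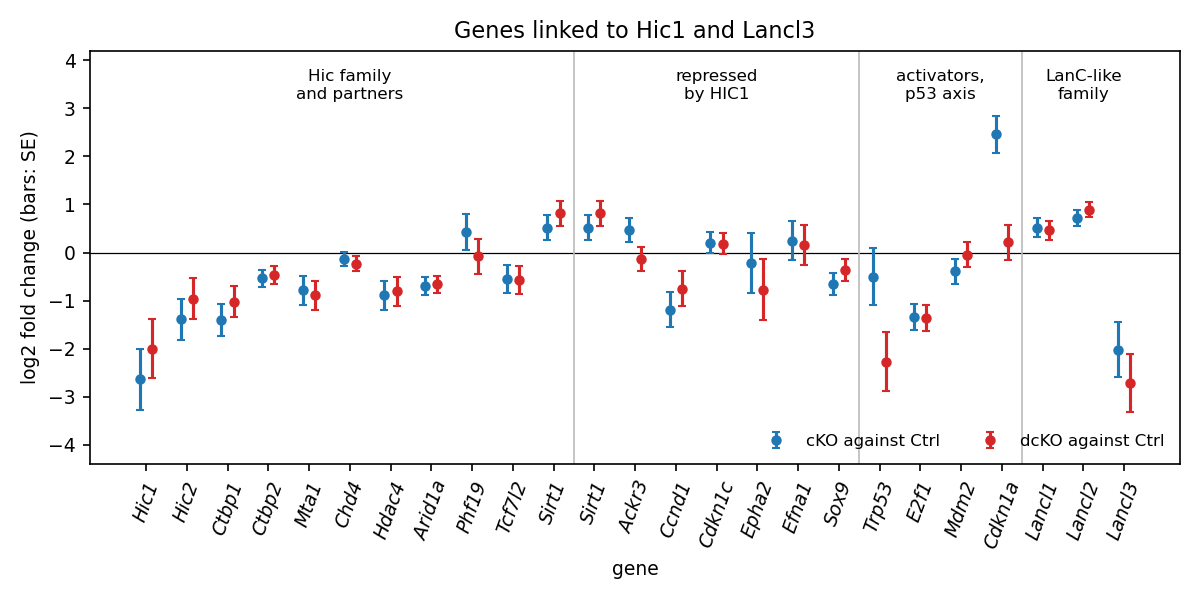
Log2 fold change (bars are SE) in cKO and dcKO against Ctrl for the tested genes linked to *Hic1* and *Lancl3*, by list. *Hic1* and *Lancl3* have the lowest values of their lists in both mutants, *Lancl1* and *Lancl2* lie above 0, and *Cdkn1a* lies apart in cKO at 2.46.

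Of the 28 genes listed for synthesis and use of glutathione, 26 were tested. Their median log2 fold change was 0.42 in cKO and 0.31 in dcKO, with 20 of 26 above 0 in each mutant. edgeR called 0 genes in either mutant. DESeq2 called 3 higher in cKO, where it called 4.94% of all genes higher, and 6 in dcKO, where it called 4.66%, with 0 lower in both. With the GC correction the median was 0.37 in both mutants. *Glrx*, a glutaredoxin gene, had 6.77 to 8.58 CPM in Ctrl, 17.0 to 23.2 CPM in cKO and 11.7 to 21 CPM in dcKO, so all 6 mutant embryos were above Ctrl. It rose by DESeq2 by 1.39 ± 0.29 in cKO (adjusted p = 2.32e-04) and 1.15 ± 0.28 in dcKO (0.00313). The transferase genes *Gstz1* and *Gstk1* also rose by DESeq2 in both mutants (1.34 and 1.44 in cKO; 1.04 and 1.29 for dcKO). In dcKO the others were *Gpx8* (1.05), *Gstt1* (1.92) and *Mgst1* (1.85), which rose by the same test. Of these 6, *Gstz1*, *Gstk1*, *Gstt1* and *Mgst1* were within or below the range of Ctrl in dcKO embryo 2. The lowest values were those of *Gpx4* in cKO (-0.38 ± 0.31) and *Gstp1* in dcKO (-0.56 ± 0.30).

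*Smg6*, of nonsense-mediated decay, ends beside the end of *Hic1*, on the opposite strand, and had 64.3 to 69.3 CPM in Ctrl, 54.6 to 57.2 CPM in cKO and 54.4 to 70.3 CPM in dcKO. It differed by -0.27 ± 0.16 in cKO and -0.16 ± 0.16 in dcKO on the log2 scale, neither past the threshold. On the other side, *Ovca2* and *Dph1*, 6423 and 8124 bases away, had 0.43 and 0.05 in cKO and 0.28 and -0.32 in dcKO. Within 250 kb of *Hic1*, 8 genes were tested, and DESeq2 called 0 of them in cKO and 2 in dcKO, where it called 4.66% of all genes higher and 3.79% lower. *Srr*, which encodes serine racemase, rose in dcKO (1.03 ± 0.23; adjusted p = 4.54e-04), and *Serpinf1* fell (-1.25 ± 0.31; 7.97e-04), with edgeR adjusted p of 0.0502 and 0.0529. In cKO *Srr* was above Ctrl in all embryos (0.79 ± 0.23; DESeq2 adjusted p = 0.0072) and *Serpinf1* below (-0.76 ± 0.30; 0.0496), both under the 2-fold threshold. *Rpa1*, *Smyd4* and *Gm12335* were between -0.52 and 0.22 in both, and *Rtn4rl1* and *Rps12-ps19* were too low to test.

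Around *Lancl3* only *Xk*, 4671 bases away, was tested, so its surroundings rest on a single gene. It had 21.2 to 26.5 CPM in Ctrl, 17.0 to 24.3 CPM in cKO and 15.5 to 25.2 CPM in dcKO, with log2 fold changes of -0.21 ± 0.26 and -0.10 ± 0.26. *Gm14862* lies inside *Lancl3* on the opposite strand and had 3, 3 and 6 reads in Ctrl, 0 in all cKO embryos and 0, 0 and 1 in dcKO. The setting of strand in the counting is not given, so it is not known how reads from the stretch shared with *Lancl3* were assigned. *Gm9431*, also too low to test, had 22, 18 and 41 reads in Ctrl, 7, 5 and 13 in cKO and 16, 42 and 9 in dcKO. *H2al1m*, *Gm6829*, *Gm14863*, *H2al1k* and *Cybb* were not tested either.

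Over the 9 embryos, log2 CPM of *Hic1* and *Lancl3* had a Pearson r of 0.753 and a Spearman rho of 0.717, as a description of points that share genotype and, for *Hic1*, the course with GC content. Among the genes most like *Hic1* were *Crim1* (r = 0.985), *Mrpl52* (0.971), a gene with no symbol in the tables used, and *Ctdsp1* (0.958). *Crim1*, which encodes a transmembrane protein that binds BMPs, had 9.09 to 15.1 CPM in Ctrl, 4.0 to 6.60 CPM in cKO and 4.70 to 8.49 CPM in dcKO. The genes most like *Lancl3* were *Mical3* (r = 0.983), *Ephb3* (0.973), *Kat14* (0.959), *Slc45a4* (0.956) and *Pygo2* (0.954). *Ephb3*, which encodes an ephrin receptor, had 12.6 to 19.0 CPM in Ctrl, 3.62 to 8.66 CPM in cKO and 2.42 to 7.04 CPM in dcKO. Since these genes were picked for their likeness, nothing is read from their levels. No gene was in both sets.

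Since these are bulk libraries, fewer cells of a type and less RNA per cell cannot be told apart. The defining genes of cortex were present, with all 10 radial glia genes, 6 genes of intermediate progenitors and 8 neuronal genes among the tested genes. Of all tested genes DESeq2 called 3.87% lower and 4.94% higher in cKO, and 3.79% lower and 4.66% higher in dcKO. Of the marker genes it called 2 of 10 tested for radial glia lower in cKO (*Hes5* and *Lhx2*), 1 of 6 for intermediate progenitors lower in both mutants (*Gadd45g*), 0 of 8 for neurons, and 2 of 4 for the cortical hem higher in both (*Wnt2b* and *Lmx1a*). The GC correction moved *Hes5* in cKO from -1.83 to -0.99 and *Lhx2* from -1.19 to -0.69 on the log2 scale, and *Gadd45g* from -2.56 to -1.87. The summed level of 5 hem genes was at most 41.2 CPM in Ctrl, 46.4 to 135 CPM in cKO and 47 to 114 CPM in dcKO, without overlap with Ctrl. Mesenchymal cells, in which *Hic1* is known to be expressed, were also looked at. The summed level of 10 genes of meningeal fibroblasts was 784 to 864 CPM in Ctrl, 458 to 699 CPM in cKO and 327 to 522 CPM in dcKO, without overlap with Ctrl. That of 7 genes of mural cells was 185 to 235, 135 to 175 and 81.8 to 210 CPM. *Notch3* gave its largest part, with 97.2 to 155 CPM in Ctrl and 72.1 to 86.3 CPM in cKO. In cKO it differed by -0.72, and by -0.15 with the GC correction. Of the 6 mural genes tested, 4 were below 0 in cKO and 2 above, *Rgs5* (0.09) and *Abcc9* (0.27). DESeq2 called 0 of either list in cKO. In dcKO, beside the 3.79% of all genes, it called lower 3 of 7 tested meningeal genes (*Col1a1*, *Col1a2* and *Col3a1*), 1 of 6 mural genes (*Pdgfrb*), 2 of 7 endothelial genes (*Cdh5* and *Tie1*) and 2 of 6 erythroid genes (*Hba-x* and *Hba-a1*). It called 0 of 5 genes of Cajal-Retzius cells and 0 of 5 of microglia in either mutant, and edgeR called 0 genes of all these lists. The 3 collagen genes made up most of the meningeal sum and were the ones below Ctrl in every mutant embryo among the 7 tested. The others, *Lum* (0.19 in cKO, -0.05 in dcKO), *Dcn* (0.00, -0.33), *Foxc1* (0.32, 0.09) and *Aldh1a2* (-0.11, -0.17), overlapped with Ctrl, and the list median was -0.11 in cKO and -0.33 in dcKO. The part of these cells in the *Hic1* difference was not tested.

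**Figure D5:**
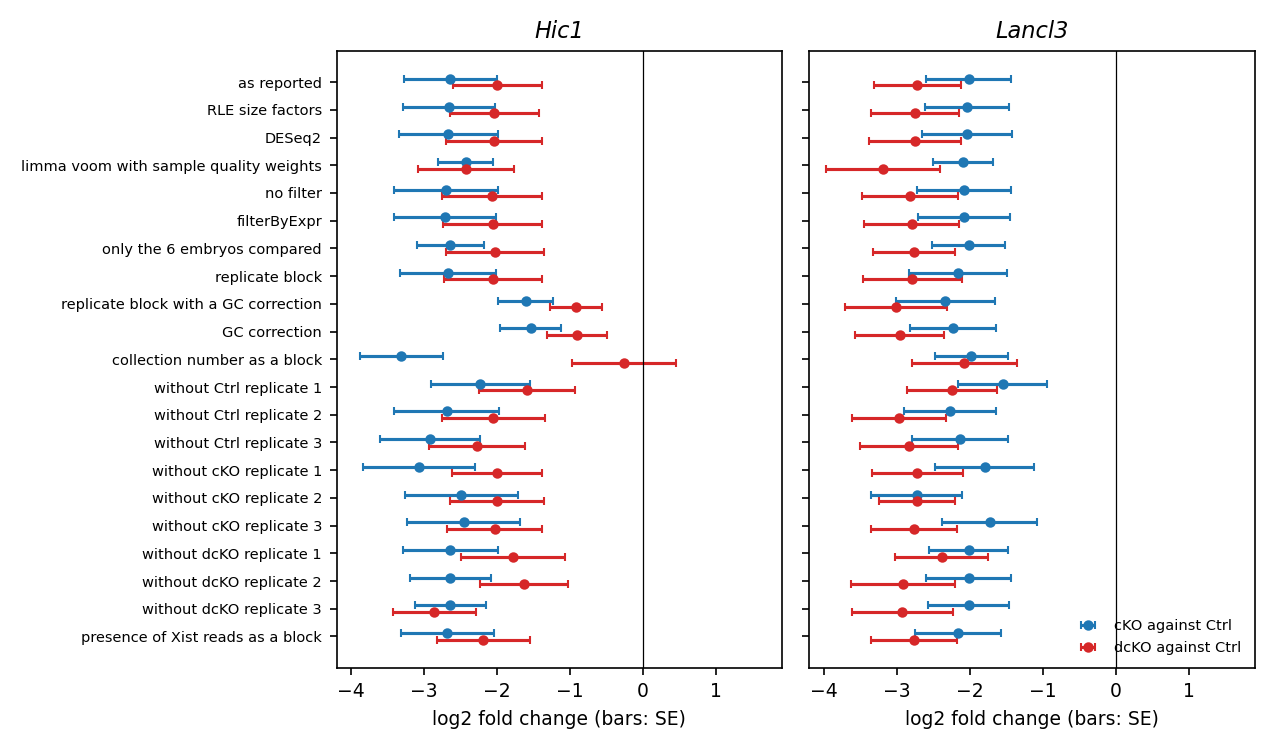
Log2 fold change (bars are SE) of *Hic1* and *Lancl3* in cKO and dcKO against Ctrl as reported and under each alternative. All *Lancl3* values lie between -3.19 and -1.55, and *Hic1* moves to -0.91 in dcKO with the GC correction and to -0.26 with the collection number as a block.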

How the data were processed

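Gene expression was measured by RNA-seq in 9 cortices, and each library took its genotype and replicate number from the label. Per the labels and the study's methods, the authors made stranded poly(A) libraries, trimmed reads with Cutadapt, aligned them to mm39 with STAR and deposited raw counts of reads per gene from featureCounts. The annotation release and the strand setting are not given in the sources used here.

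Counts were tested in R 4.3.3 with edgeR 4.0.16 (TMM, quasi-likelihood, all 9 embryos in one model, more than 10 reads in every embryo, Benjamini-Hochberg adjustment) and called at an adjusted p under 0.05 with a fold above 2. CPM used the TMM library sizes. DESeq2 1.42.0, limma 3.58.1 voom with quality weights, RLE factors, other filters, a loess correction for GC content (span 0.3), the replicate or collection number as a block, fits of 6 embryos and fits without each embryo were alternatives. *Xist* presence as a block was added after seeing the data. The edgeR steps were tested on simulated data. p-values measure the spread between single embryos. *Trp53* had no adjusted p in DESeq2. The planned test of the 2 genes between dcKO and cKO is not reported, since the choice of the genes bears on that difference.

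The 2 genes and all lists were chosen with earlier results of these data known. Named were the 2 genes, *Cnot3* and *Trp53*, all genes of the short lists, called and extreme genes of the glutathione list, genes within 250 kb in GENCODE M21 (52081 genes matched), the 5 genes with the highest Pearson r for each member, and called marker genes. Some genes that these rules name are not reported here.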

Additional observations from a re-analysis of the deposited data

How the results depend on the processing

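*Lancl3* kept its side of 0 and stayed within the spread between replicates under all 20 alternatives, from -2.73 (without cKO embryo 2) to -1.55 (without Ctrl embryo 1) in cKO and from -3.19 to -2.08 in dcKO on the log2 scale. *Hic1* moved with 3 of 20 in each mutant: the GC correction (-1.54 in cKO, -0.91 in dcKO), the replicate block with that correction (-1.61 and -0.92) and the collection number as a block (-3.31 and -0.26). The last fit has 1 residual degree of freedom and sets 1 dcKO embryo against 1 Ctrl embryo. Leaving out each embryo gave *Hic1* -3.07 to -2.23 in cKO and -2.86 (without dcKO embryo 3) to -1.59 in dcKO. Between dcKO and cKO, *Hic1* ranged from -0.22 (without dcKO embryo 3) to 1.06 when an embryo was left out, and the collection block gave 3.06. *Lancl3* ranged from -1.03 to 0.00 (without cKO embryo 2). Where no cause is given, the cause was not tested.

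Counts of calls depended on the tool and on single embryos. In cKO the 2 calls of edgeR became 1206 with DESeq2, 1868 with limma, 813 without the filter, 1758 with the 6 embryos alone, 716 with the GC correction, 1986 with the collection block, 0 with the *Xist* block, and 0 (without any 1 Ctrl or cKO embryo) to 1473 (without dcKO embryo 3; 919 and 1141 without dcKO embryos 1 and 2). In dcKO the 0 calls became 1157, 3668 and 692 with the first 3, 223 with the GC correction, 1633 with the collection block and 0 to 3245 with an embryo left out (3245 without dcKO embryo 3, 1330 without dcKO embryo 2). For dcKO against cKO, 2 calls became 52, 27 and 8 with the first 3, 0 with 6 embryos, 9 with the GC correction, 1583 with the collection block and 0 to 1236 (without dcKO embryo 3) with an embryo left out.

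Same-numbered embryos are different animals. Their deviations from the genotype means had a mean correlation of -0.169 over 9 pairs, so they were not alike on average. The mean over 18 pairs of unlike numbers was 0.0835. It is nearly fixed by the first value, since deviations from a mean of 3 embryos sum to 0, and is no separate reference. The replicate block gave 0 calls in each comparison (4 in cKO against Ctrl and 6 in dcKO against cKO with the GC correction), and gave *Hic1* -2.67, -2.06 and 0.61 and *Lancl3* -2.16, -2.79 and -0.63 in cKO, dcKO and dcKO against cKO.

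Depth limits both genes. The lowest counts were 11 and 12 reads, and 853 of the 14533 genes above 10 reads in every Ctrl embryo were not tested because a mutant embryo fell short.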
